A study of Mus musculus with 47 samples.

Results

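The genes described here are Col5a1, Emilin2, Bex4, Tmem40, Vamp5 and Ces2g, 6 of 18193 genes measured on 47 arrays of leukaemic mouse spleen. They were picked because their levels varied widely together with Car1, an abundant carbonic anhydrase of red cell precursors, although none of the 6 is a classical red cell gene. Each gene is represented by its probe set with the highest mean among the probe sets that name 1 gene, and all 6 passed the filter on dim genes that left 18178 genes for testing. Values are log2 RMA levels, so 1 unit is a doubling. Array medians lay between 5.19 and 5.24, and values near 5 therefore stand at the background of the arrays. Because the shared variation with Car1 chose the genes, their correlations with Car1, with one another and with other genes of the same axis are given as descriptions without tests.

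Each array is the spleen of a different mouse, collected at necropsy at the terminal stage of a leukaemia labelled myeloid and undifferentiated. All mice carried the ACTB-cre transgene, which is active widely in the body, the SB11 transposase at Rosa26 and the mobile T2/Onc2 transposon, so the groups share all of these and differ in the transposon line, which was 6070 in 26 mice and 6113 in 21. A transposon insertion in Erg, an ETS-type regulator active in megakaryocytes and in the stem cells of blood, was labelled present for 26 tumours and absent for 21. The labels give 25 females and 22 males, aged 32 to 97 with a median of 68, in a unit that is not given. Spleens without leukaemia were not analysed here. Xist transcripts went against the sex label on 24 of 47 arrays and matched it on 23, so every comparison by label stands beside this mismatch, whereas comparisons between genes on the same array do not use the labels. Of 12 monocyte and macrophage markers, Vcam1, Lyz2 and Ctss exceeded 7 on all 47 arrays, while Adgre1, Cd68, Cd163 and Spic exceeded it on none. Of 12 neutrophil and granule markers, S100a8 exceeded 7 on 30 arrays, with a median of 8.09, and S100a9 on 29, while Mpo exceeded it on 6 and Elane on none. The markers Vcam1, Ctss, Adgre1, Cd68, Spic and Mpo were named after their values were seen. So were the genes Vpreb1, Cd3d, Alas2, Ermap, Ank1, Tspan33, Aqp1, Rhag, Rhd, Sptb, Kel, Epb42, Tal1, Col5a2, Col5a3, Col1a2 and Vamp7 used below.

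Red cell precursors arise under the transcription factor Gata1, which acts with Tal1, Lmo2 and Nfe2, and Klf1 then switches on genes of the later red cell, such as the anion exchanger Slc4a1 and the haem synthesis enzyme Alas2. In mice the spleen is a site of red cell formation that expands under stress and in leukaemia. The 6 genes come from unrelated families. Col5a1 encodes the alpha 1 chain of type V collagen, a fibrillar collagen best known from connective tissue, and Emilin2 encodes a secreted glycoprotein of elastic matrix. Bex4 belongs to a family of small X-linked proteins. Tmem40 encodes a membrane protein whose function is little described. Vamp5 is a member of the vesicle-associated SNARE family known from muscle, and Ces2g is a carboxylesterase, an enzyme that cleaves esters.

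Col5a1 divided the spleens into 2 sets with nothing between them. Its level ran from 5.40 in the spleen Male 4 through a median of 8.30 to 9.62 in Female 25. On 18 arrays it lay at or below 6.53, and on 29 arrays at or above 8.02. The gap between these values was the widest for this gene, and the medians of both sets, 5.68 and 8.82, differed by 3.14 units or 8.83-fold. The sets were defined from the data, at a level of 7 that falls inside the gap, and are used below for description only. In whole spleen, fewer cells of a type and less RNA per cell cannot be told apart.

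Ces2g divided the same 18 from the same 29 spleens. It lay between 5.42 and 7.43 with a median of 6.35 where Col5a1 was low, and between 7.87 and 8.54 with a median of 8.32 where Col5a1 was high. The high set was narrow, and its lowest member stood 0.43 above the highest spleen of the other set. Vamp5 did not overlap either. It ran from 6.39 through 7.03 to 7.63 on the 18 arrays and from 7.85 through 8.99 to 9.65 on the 29 arrays. Of 18178 genes tested, 31 were higher on all 29 arrays than on any of the 18, which is 0.171%, and 26 were lower on all of them, which is 0.143%. Col5a1, Ces2g and Vamp5 are among the 31, but Col5a1 defined the sets and the others were chosen for moving with the same axis, so nothing is read from that share.

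The other 3 genes overlapped between the sets. Emilin2 ran from 5.49 through 6.00 to 7.18 on the 18 arrays and from 6.43 through 8.25 to 9.35 on the 29 arrays, with Female 3 at 6.43, Female 18 at 6.70 and Male 6 at 7.06 falling into the lower range. Bex4 ran from 5.18 through 5.74 to 7.23 and from 6.54 through 8.28 to 9.35. Female 20 had the lowest Bex4 of the upper set, and Female 9 the highest of the lower set. Tmem40 ran from 5.40 through 6.42 to 8.37 and from 7.21 through 8.51 to 9.39. A single spleen, Male 10 at 8.37, accounts for the highest Tmem40 value of the lower set, and its Col5a1 was 6.42. Differences between the medians of the sets were 2.26 units for Emilin2, 2.54 for Bex4, 2.09 for Tmem40, 1.96 for Vamp5 and 1.97 for Ces2g. All 6 genes spanned at least 3 units over the 47 arrays, from 3.12 for Ces2g to 4.22 for Col5a1, as did 364 of 18178 genes, or 2%.

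**Figure D1:**
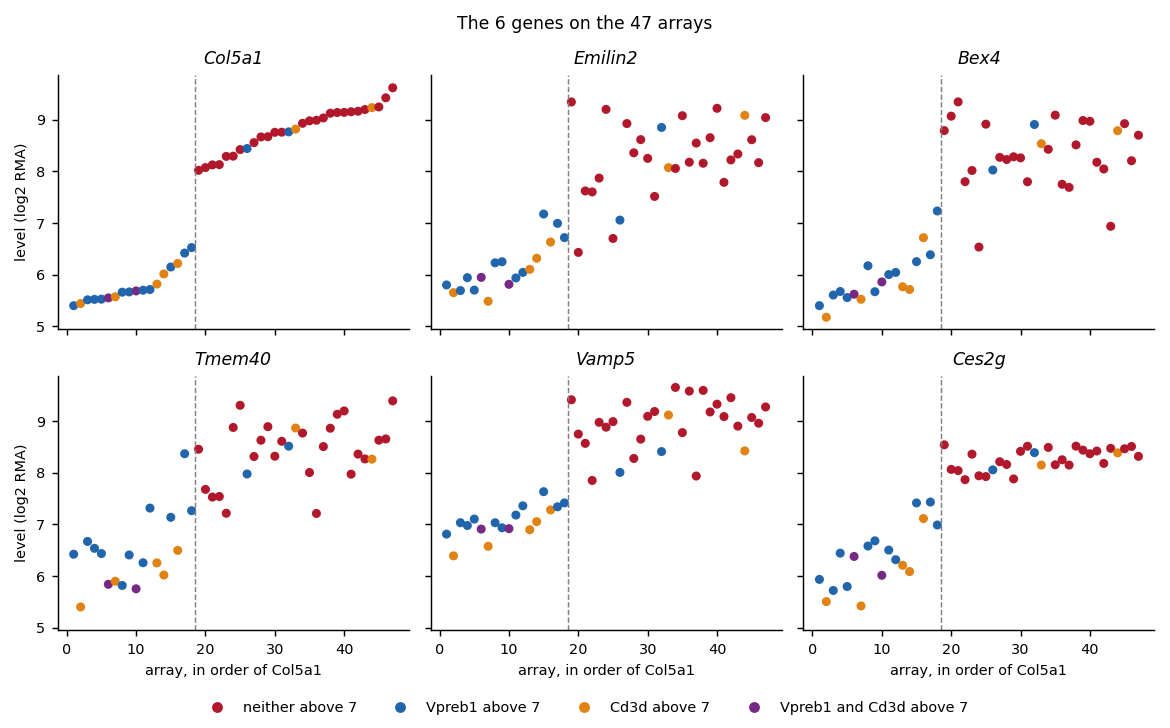
Level of each of the 6 genes (log2 RMA, vertical axis) on 47 arrays placed in order of Col5a1, with 1 point per spleen coloured by whether the lymphoid genes Vpreb1 and Cd3d exceeded 7; the dashed line separates the 18 arrays with Col5a1 at or below 6.53 from the 29 at or above 8.02. Ces2g and Vamp5 are also split without overlap at the line, whereas Emilin2, Bex4 and Tmem40 overlap.

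Other probe sets of the same gene ran parallel to the one used where there were any. Col5a1 has 3 single-gene probe sets, and the 2 dimmer ones correlated with the one used at r = 0.975 and r = 0.921 over the 47 arrays. The dimmest of them ran only from 5.21 to 5.91. Tmem40 has 3, with r = 0.992 and r = 0.962, and Vamp5 has 2, with r = 0.906. Emilin2, Bex4 and Ces2g rest on 1 probe set each.

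Promoter sequence was examined because the 6 genes moved together without a common family. The 250 bases before each RefSeq start were searched on both strands, in build GRCm38.p6, for GATA letters (the sequence TGATAA, its variant TGATAG, or AGATAA, or lastly AGATAG), for the CACCC-type letters CCNCNCCC bound by KLF and SP factors, and for ETS letters, which were CAGGAA or else CCGGAA. All 6 genes were in the table, Emilin2 and Tmem40 with 2 starts each. GATA letters were present for 2 of 6 genes, Tmem40 and Ces2g, against 29.7% of 27025 genes. CCNCNCCC was present for 4 of 6, Col5a1, Bex4, Tmem40 and Vamp5, against 48.5% of genes, and ETS letters for 3 of 6, Emilin2, Tmem40 and Ces2g, against 38.2%. With 6 genes, neither a likeness to the shares of all genes nor a difference from them can be read. A match is a description of the letters and no evidence of binding. The promoters of Col5a1, which has the gap, of Ces2g, which had the highest r with Gata1, of Tmem40, which had Nfe2 among its closest genes, and of Vamp5, which followed Erg, are printed with GATA and CCNCNCCC matches in capitals, 5′ to 3′ on the strand of the gene.
Col5a1, chr2:27886175-27886424, plus strand: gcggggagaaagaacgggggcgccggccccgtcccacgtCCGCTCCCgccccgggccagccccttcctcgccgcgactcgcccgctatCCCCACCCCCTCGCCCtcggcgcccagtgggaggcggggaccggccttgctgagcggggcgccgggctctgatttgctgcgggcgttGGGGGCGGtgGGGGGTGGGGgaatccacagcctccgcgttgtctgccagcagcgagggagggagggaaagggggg
Ces2g, chr8:104961468-104961717, plus strand: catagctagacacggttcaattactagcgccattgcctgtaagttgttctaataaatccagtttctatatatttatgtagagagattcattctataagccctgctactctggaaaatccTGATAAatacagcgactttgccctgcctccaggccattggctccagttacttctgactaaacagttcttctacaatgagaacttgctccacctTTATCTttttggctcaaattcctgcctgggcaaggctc
Tmem40, chr6:115762467-115762716, minus strand: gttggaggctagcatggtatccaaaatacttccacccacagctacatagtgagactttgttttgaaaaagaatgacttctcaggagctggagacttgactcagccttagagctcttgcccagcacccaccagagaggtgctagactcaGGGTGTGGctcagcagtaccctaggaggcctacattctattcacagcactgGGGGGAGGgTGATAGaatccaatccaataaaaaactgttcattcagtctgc
Vamp5, chr6:72380469-72380718, minus strand: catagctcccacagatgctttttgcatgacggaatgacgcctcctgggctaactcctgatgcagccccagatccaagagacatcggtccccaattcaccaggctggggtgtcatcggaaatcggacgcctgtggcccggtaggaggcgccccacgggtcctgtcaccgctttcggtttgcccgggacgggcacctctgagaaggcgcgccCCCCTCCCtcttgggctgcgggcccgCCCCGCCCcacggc
The Col5a1 promoter held 7 overlapping or separate CCNCNCCC matches in a stretch of 76.4% G and C, against a median of 52.4% over all promoters. The Ces2g promoter, at 42.0% G and C, held 2 GATA matches and no CCNCNCCC match. For Tmem40 the earlier of the 2 starts is shown, with a GATA match that begins 42 bases before the start. The promoter of Emilin2 held neither kind of capitalised match at either start.

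Across all 47 arrays the 6 genes were closely correlated, but most of that lay in the step between the 2 sets. The 15 pairs had a median Pearson's r of 0.877, from 0.799 for Emilin2 with Bex4 to 0.944 for Col5a1 with Ces2g. Among the 29 spleens with high Col5a1 the median r was 0.263, from -0.034 for Emilin2 with Bex4 to 0.526 for Vamp5 with Ces2g. Among the 18 with low Col5a1 it was 0.763, from 0.571 for Bex4 with Tmem40 to 0.933 for Emilin2 with Ces2g. The 6 genes thus varied together among spleens where they were low, and much less among spleens where they were high. By Spearman's rho the low side was weaker for Tmem40, at 0.41 with Col5a1, 0.46 with Emilin2, 0.47 with Bex4 and 0.49 with Ces2g. With Vamp5 it was 0.75, and pairs without Tmem40 lay between 0.67 and 0.90. On the low side the levels also followed a measure of RNA quality. The difference between the 3′ and 5′ control probe sets of Actb and Gapdh, which grows with degraded RNA, correlated with the 6 genes at r = 0.407 to 0.718 over those 18 arrays, at r = -0.183 to 0.217 over the 29 and at r = 0.127 to 0.316 over all 47. It ranged from 0.65 to 2.96 with a median of 1.18 on the 18 arrays and from 0.93 to 2.61 with a median of 1.33 on the 29, and its part in the correlations was not tested. Within the 33 arrays whose tumour identifier ends in the number 9, a number whose meaning the labels do not state, the median r of the 15 pairs was 0.910.

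**Figure D2:**
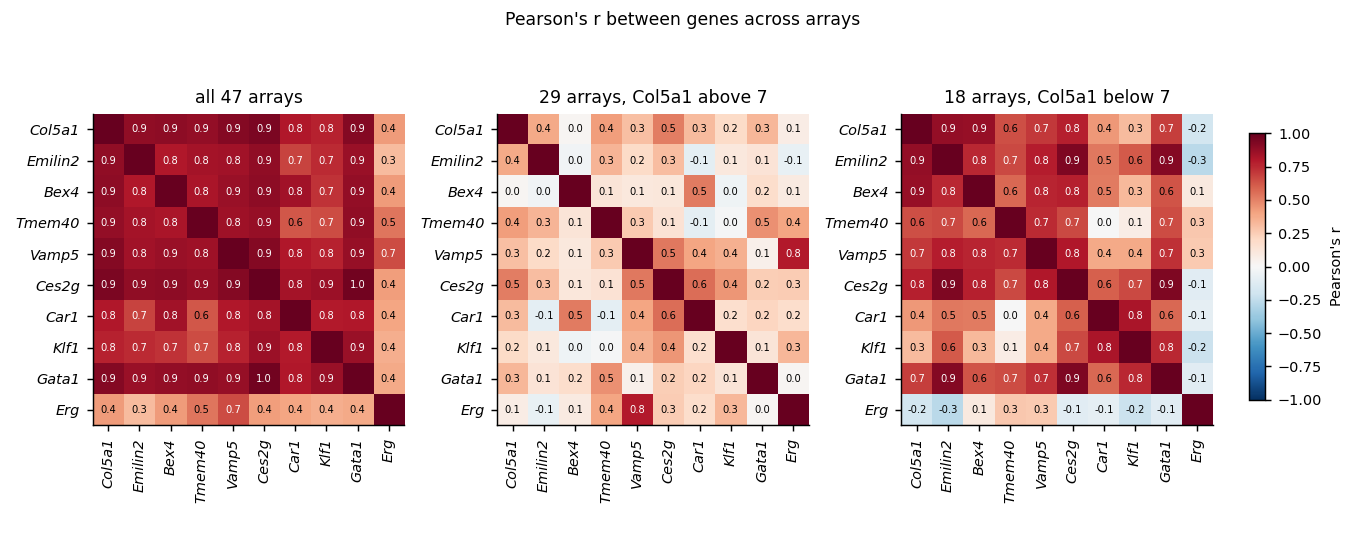
Pearson's r between the 6 genes and Car1, Klf1, Gata1 and Erg (colour and printed value, rounded to 1 decimal) over all 47 arrays, over the 29 arrays with Col5a1 above 7 and over the 18 with Col5a1 below 7. The median r of the 15 pairs of the 6 genes is 0.877, 0.263 and 0.763 in these panels.

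Car1 itself ran from 6.20 through 10.31 to 11.57. Its r with the 6 genes was 0.838 for Bex4, 0.836 for Ces2g, 0.802 for Col5a1, 0.802 for Vamp5, 0.679 for Emilin2 and 0.623 for Tmem40. This is the relation that chose the genes, and r above 0.5 with Car1 was found for 9.18% of all genes. A spleen with high Col5a1 departed from it. Female 20 had Car1 at 6.49, the second lowest of 47, and yet Col5a1 at 8.30, Emilin2 at 9.20, Tmem40 at 8.88, Vamp5 at 8.88, Ces2g at 7.94, Klf1 at 9.40 and Gata1 at 7.76, all inside the range of the other 28 spleens with high Col5a1. Its Bex4, at 6.54, was below the 6.94 that was lowest among those others. Its Tal1, at 7.29, was below their lowest too, which was 8.32. Male 10, in the low set, had Car1 at 7.60 beside Tmem40 at 8.37 and Ces2g at 7.43. The 2 spleens with Car1 farthest from its median were Male 16, at 6.20, and Female 20 itself. Leaving out Female 20 removes the departure, so the higher r without these 2 spleens is description only. It was 0.920 for Ces2g, 0.914 for Vamp5 and 0.880 for Col5a1. For Bex4 it was 0.871, for Emilin2 0.816 and for Tmem40 0.763.

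The relation to Klf1 had the same shape. Klf1, the transcription factor that drives later red cell genes, ran from 5.62 through 9.14 to 9.99. Over all arrays r was 0.857 for Ces2g, 0.772 for Col5a1, 0.771 for Vamp5, 0.744 for Emilin2, 0.720 for Bex4 and 0.651 for Tmem40, all above 0.5, as for 9.23% of genes. The median of the 6 was 0.757 over all arrays, 0.147 among the spleens with high Col5a1 and 0.352 among those with low Col5a1. Ces2g kept the highest r with Klf1 of the 6 on both sides, at 0.443 and 0.662. In the spleen Female 13 Klf1, at 9.99, was the highest of all, and Slc4a1, at 11.22, was too. Its Col5a1 was 6.15, its Bex4 6.25, its Tmem40 7.14 and its Ces2g 7.42. Its Emilin2 at 7.18, Vamp5 at 7.63 and Gata1 at 7.79 were the highest of the 18 spleens with low Col5a1.

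By Pearson's r over all 47 arrays, Gata1 lay closer to each of the 6 genes than Klf1 or Car1 did. Its r was 0.966 with Ces2g, 0.920 with Col5a1, 0.883 with Tmem40, 0.878 with Bex4, 0.872 with Vamp5 and 0.862 with Emilin2. With Ces2g the relation was a line on the low side, at r = 0.931 over 18 arrays, and a cloud on the high side, at r = 0.249 over 29, where Ces2g spanned only 7.87 to 8.54. With Emilin2 it was 0.918 on the low side and 0.135 on the high side. By Spearman's rho Car1 was closer than Gata1 for Vamp5, at 0.822 against 0.734, and for Ces2g, at 0.873 against 0.821. Klf1, at 0.744, was also closer than Gata1 for Vamp5 by rho. Genes of the red cell membrane differed among themselves. Ermap, Ank1, Tspan33, Aqp1, Rhag and Rhd had a mean r with the 6 genes of 0.774, 0.639, 0.612, 0.551, 0.544 and 0.506. Sptb, Kel and Epb42 had 0.5, 0.340 and 0.215, and Sptb was dim, reaching at most 6.19. Slc4a1, the anion exchanger, had r between -0.357 for Vamp5 and -0.089 for Emilin2, and its median was 8.89 where Col5a1 was high and 9.78 where it was low. Alas2, the first enzyme of haem synthesis in red cells, had r between 0.064 and 0.322. On the 18 arrays with low Col5a1 both were positive, with a mean r of 0.334 for Slc4a1 and 0.468 for Alas2, and Ces2g had r = 0.597 and r = 0.698 with them.

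The genes closest to each member over the 47 arrays were mostly not collagens, esterases or other relatives. For Col5a1 they were Nmnat2, an enzyme of NAD synthesis, at r = 0.956, the cytoskeletal GTPase gene Septin8 at r = 0.947 and the growth factor gene Hdgf at r = 0.944. For Emilin2 they were the aminopeptidase gene Xpnpep1 at r = 0.896, then Col5a1 and Ces2g. For Bex4 they were Acsl5, which activates long-chain fatty acids, at r = 0.926, the tetraspanin gene Tspan32 at r = 0.921 and Nmnat2 at r = 0.916. For Tmem40 they were Fermt3, the activator of integrins in blood cells, at r = 0.936, Nfe2 at r = 0.914 and Tspan32 at r = 0.910. Tmem40 and Fermt3 were still correlated inside the sets, at r = 0.748 over the 29 arrays and r = 0.823 over the 18. For Vamp5 they were 3 metabolic genes, Pgm2 of the phosphoglucomutase family at r = 0.951, the hexokinase gene Hk1 at r = 0.945 and the pantothenate kinase gene Pank1 at r = 0.938. Vamp5 and Pank1 had r = 0.883 over the 29 arrays, although Pank1 spanned only 5.30 to 6.41. For Ces2g they were Gata1, Septin8 at r = 0.957 and Lmo2 at r = 0.949.

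Of the relatives of the 6 genes, Vamp8 and Bex3 had a mean r with them above 0.5, and Vamp4 and Bex6 below -0.5. Collagen genes were compared first, because type V collagen is assembled from chains of Col5a1 with Col5a2 or Col5a3. Col5a2 lay between 5.55 and 7.08 with a median of 5.87 where Col5a1 was high and 5.95 where it was low, and its mean r with the 6 genes was 0.052. Col5a3 stayed at or below 5.26 on every array. Over the 14 other collagen genes the mean r with the 6 genes had a median of -0.013, from -0.230 for Col6a2 and -0.211 for Col6a1 to 0.204 for Col4a2 and 0.416 for Col18a1. Col1a2, a chain of type I collagen, ran from 6.53 to 9.74, and its medians in the high and low sets were 7.40 and 7.66. Col5a1 thus differed between sets of spleens in which the medians of the other collagen chains differed little. For chains near background, such as Col5a3, like medians say little. Inside the low set the mean of the collagen list went with the 6 genes, at r between 0.23 for Tmem40 and 0.481 for Col5a1. Inside the high set its r lay between -0.35 for Ces2g and 0.274 for Tmem40, and was -0.214 for Col5a1.

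Among relatives of Emilin2, the mean r with the 6 genes was -0.092 for Emilin1, 0.105 for Emilin3, 0.207 for Mmrn2 and -0.466 for the platelet gene Mmrn1. Emilin3 stayed at or below 5.33 on every array. In the BEX and TCEAL family it was 0.592 for Bex3 and 0.498 for Tceal8 at one end and -0.222 for Tceal1 and -0.508 for Bex6 at the other, and Bex6 stayed at or below 5.81. Bex3 had medians of 7.38 and 6.82 in the high and low sets, a difference of 0.55 against 2.54 for Bex4, and Tceal8 had 6.49 and 5.76. In the VAMP family Vamp8, which serves secretion in blood cells, had a mean r of 0.799 and medians of 8.33 and 7.38. Vamp4 ran the other way, with a mean r of -0.856 and medians of 6.32 and 7.02. Vamp3 had 0.348, Vamp1 -0.400 and Vamp7 0.139. None of 10 other carboxylesterase genes was measured above 6.10, and 9 of them stayed below 6 on every array, so Ces2g was the only one of those measured with a level clear of background.

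**Figure D3:**
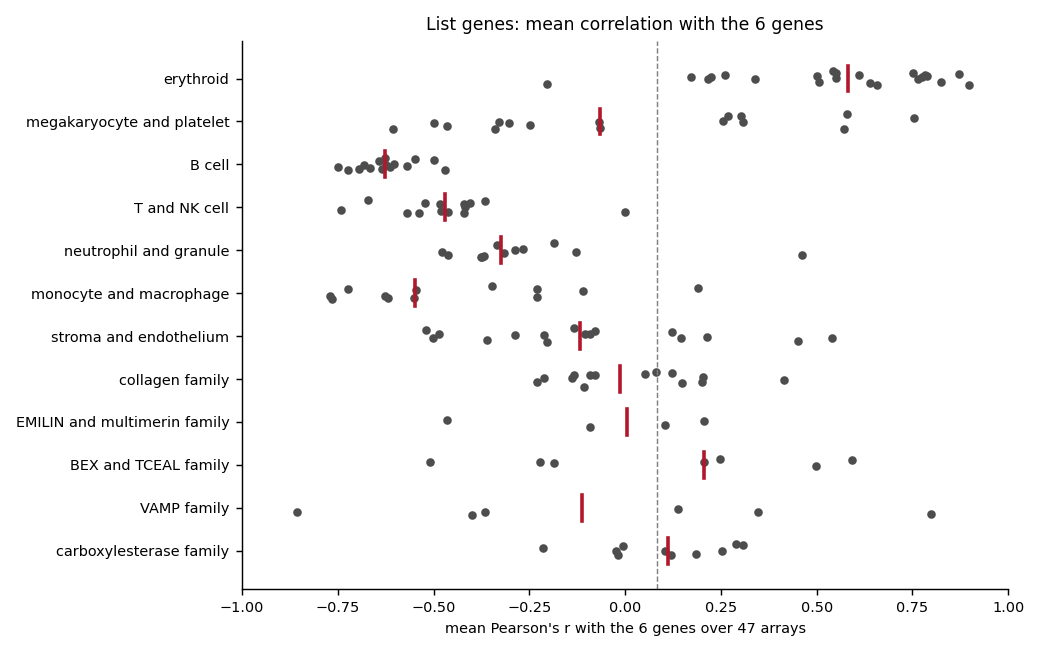
Mean Pearson's r of each listed gene with the 6 genes over 47 arrays (horizontal axis), 1 point per gene, by list (vertical axis); red bars are list medians and the dashed line is the median of all 18178 genes, 0.084. Erythroid genes lie mostly to the right, with a median of 0.582, B cell genes to the left, with a median of -0.627, and collagen genes around 0.

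Genes of the erythroid list were on the same side as the 6 genes for the most part. A mean r above 0.5 was found for 15 of 22 measured genes of the list and below -0.5 for none, beside 11.3% and 8.22% of all genes. Nfe2, at 0.872, came closest after Gata1, at 0.897. Tfrc, the transferrin receptor, had 0.172 and Slc4a1 -0.204. The mean level of the 22 genes was 7.73 to 8.79 with a median of 8.39 where Col5a1 was high and 6.10 to 9.03 with a median of 7.53 where it was low, so the ranges overlapped widely. The mean of the list with each gene scaled over the arrays had r from 0.605 for Vamp5 to 0.775 for Ces2g. Megakaryocyte and platelet genes had a median mean r of -0.066 over all arrays. On the 18 arrays with low Col5a1 the mean of this list had r between 0.323 for Col5a1 and 0.808 for Vamp5, and on the 29 between -0.398 for Ces2g and 0.303 for Tmem40. Gp5, a subunit of the platelet receptor for von Willebrand factor, had 0.755 and Rab27b 0.578, while the platelet chemokine gene Ppbp had -0.605 and Clec1b -0.499, all over the 47 arrays.

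Lymphoid genes were at the other end. Every one of the 18 spleens with low Col5a1 had Vpreb1, a surrogate light chain gene of developing B cells, or Cd3d, a chain of the T cell receptor complex, above 7. Vpreb1 alone was above 7 in 11 of them, Cd3d alone in 5 and both in 2. Of the 29 spleens with high Col5a1, 25 had neither above 7. The 4 exceptions were Male 6 with Vpreb1 at 9.34, Female 8 with Vpreb1 at 7.28, Male 1 with Cd3d at 8.23 and Female 11 with Cd3d at 7.46. In Male 6 the 6 genes were nonetheless at 8.44 for Col5a1, 7.06 for Emilin2, 8.03 for Bex4, 7.98 for Tmem40, 8.01 for Vamp5 and 8.06 for Ces2g.

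The r with Vpreb1 over all arrays ran from -0.688 for Col5a1 to -0.510 for Tmem40, below -0.5 for all 6 genes and for 7.57% of genes. The r with Cd3d ran from -0.534 for Tmem40 to -0.383 for Emilin2. It was below -0.5 for Tmem40, Ces2g and Vamp5, and for 1.18% of genes. Within the sets, r with Vpreb1 lay between -0.348 and -0.063 over the 29 arrays and between -0.053 and 0.421 over the 18. With Cd3d, r lay between -0.301 and 0.277 over the 29 arrays. Over the 18 it lay between -0.562 for Tmem40 and -0.056 for Col5a1, and Tmem40 and Vamp5, at -0.557, were farther below 0 there than over all arrays. The mean of the B cell list, with 15 of 16 genes measured, had a median r with the 6 genes of -0.727 over all arrays, -0.229 on the high side and -0.013 on the low side. The mean of the T and NK cell list, with 14 of 16 measured, had -0.694, 0.0069 and -0.309.

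The B cell list stood apart most between the sets. Its mean level was 5.34 to 7.04 with a median of 5.63 where Col5a1 was high and 5.75 to 8.30 with a median of 7.61 where it was low, and all 15 measured genes had the lower median in the high set. Pou2af1, a B cell coactivator, had a mean r of -0.750 with the 6 genes and the recombinase gene Rag1 -0.724, while Cr2 and Pax5 were nearest to 0 at -0.499 and -0.471. Pax5 was dim and reached at most 5.65. The mean of the T and NK cell list was 5.26 to 6.54 with a median of 5.45 and 5.80 to 7.62 with a median of 5.99. In that list the receptor gene Il7r and the transcription factor gene Lef1 had a mean r of -0.743 and -0.670, and Cd3g and Nkg7 -0.366 and 0.0001.

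Most macrophage and granule genes also had the higher median in the low set, but inside that set the means of both lists went with the 6 genes. Single genes differed there. The mean r over the 18 arrays ran from 0.41 for Csf1r to -0.07 for Spic among macrophage genes, with 0.12 for Lyz2. Among granule genes it was 0.43 for S100a8 and -0.0009 for Csf3r. Over those 18 arrays the mean of the macrophage list had r between 0.223 and 0.476 with the 6 genes, and the mean of the granule list between 0.316 and 0.670. Over the 29 arrays these ran from -0.589 to 0.147 and from -0.598 to -0.156. Of 12 monocyte and macrophage genes, 11 had the higher median there, led by the receptor gene Csf1r and the lysozyme gene Lyz2, with a mean r of -0.770 and -0.766. Cd163 at 0.189 and Mrc1 at -0.110 were at the other end of that list. The mean level of the 12 genes was 6.49 to 7.51 with a median of 6.89 in the high set and 7.04 to 8.17 with a median of 7.64 in the low set. Of 12 neutrophil and granule genes, 10 had the higher median in the low set, and the calprotectin genes S100a8 and S100a9 had a mean r of -0.477 and -0.462. Csf3r, the receptor for the granulocyte growth factor, went the other way at 0.461. The mean level of that list was 5.38 to 8.86 with a median of 5.80 in the high set and 5.59 to 9.10 with a median of 6.82 in the low set. Stroma and endothelium genes differed little, at 5.76 to 6.64 with a median of 6.02 and 5.83 to 6.56 with a median of 6.17. The mean of that list also went with the 6 genes inside the low set, at r between 0.367 and 0.710. Over the 29 arrays its r lay between -0.468 and 0.328. In that list the endothelial genes Cdh5 and Kdr had a mean r of 0.541 and 0.451, and the fibroblast genes Pdgfrb and Dcn -0.501 and -0.520. Cdh5 and Kdr were dim, reaching at most 6.01 and 6.31, and their medians differed between the sets by only 0.23 and 0.18. The part of these other cell types in the levels of the 6 genes was not tested.

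**Figure D4:**
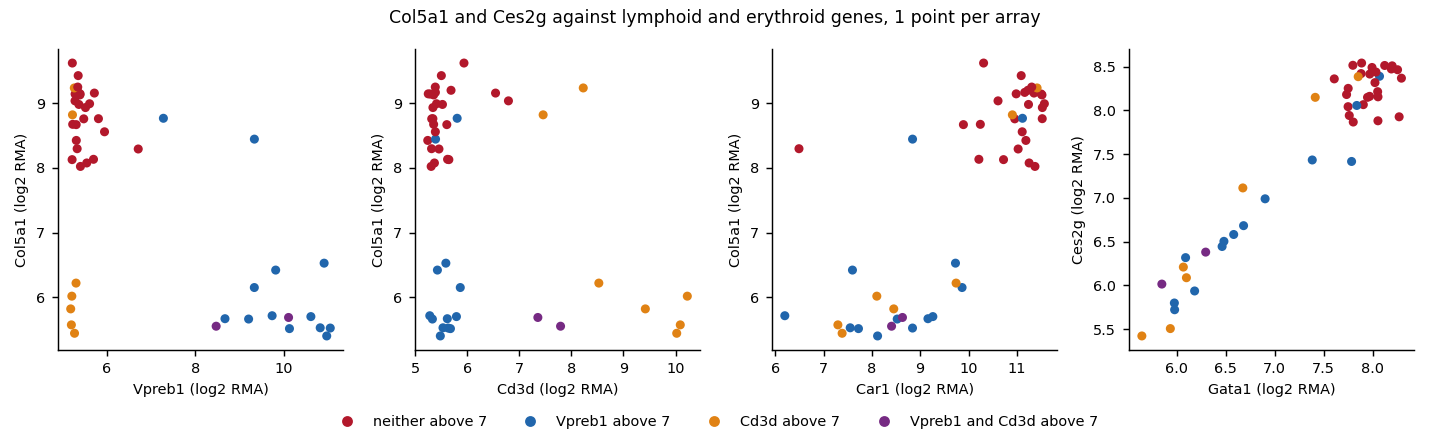
Col5a1 against Vpreb1, Cd3d and Car1, and Ces2g against Gata1 (all log2 RMA), 1 point per spleen, coloured by whether Vpreb1 and Cd3d exceeded 7. No spleen has Col5a1 between 6.53 and 8.02; Female 20 lies alone at Car1 6.49 with Col5a1 8.30, and Male 6 has Vpreb1 9.34 with Col5a1 8.44.

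The relation to Erg RNA was tested because Erg was not used to choose the genes and its level does not depend on the labels. It is not free of that choice, since Car1 itself rose with Erg RNA, with a slope of 0.63 ± 0.21 (SE) and a limma adjusted p of 0.0380 in the fit described next. Erg ran from 5.08 through 6.59 to 8.28, and exceeded 7 on 16 of the 29 arrays with high Col5a1 and on 1 of the 18 with low Col5a1. In a limma fit of every gene on the Erg level over 47 arrays, with Benjamini-Hochberg adjustment over 18177 genes, 5 of 6 genes rose with Erg RNA, beside 10.7% of all genes that rose and 5.21% that fell. The slope, in log2 units per log2 unit of Erg, was 0.68 ± 0.11 (SE) for Vamp5 with a limma adjusted p of 4.29e-05. It was 0.62 ± 0.14 for Tmem40 with a limma adjusted p of 0.00206. Bex4 had 0.58 ± 0.18 and Col5a1 0.66 ± 0.21, with limma adjusted p-values of 0.0205 and 0.0220. Ces2g had 0.43 ± 0.14 with a limma adjusted p of 0.0255. For Emilin2 the slope of 0.40 ± 0.17 did not pass, with a limma adjusted p of 0.114. Of the lists, 4 of 22 erythroid genes rose and 1 fell, 9 of 14 T and NK cell genes and 7 of 12 neutrophil and granule genes fell, and 0 of 15 B cell genes passed in either direction.

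Most of these slopes no longer passed once the axis of Car1 or of the lymphoid genes was in the model. With the Car1 level as a covariate, 1 of the 6 genes passed, Vamp5, with a slope of 0.41 and a limma adjusted p of 0.000499. Tmem40 had a slope of nearly that size, 0.40, with a limma adjusted p of 0.0730. The slopes of the others were 0.20 for Col5a1, 0.16 for Bex4, 0.11 for Ces2g and 0.074 for Emilin2. With Vpreb1 and Cd3d as covariates, an alternative added after the data were seen, the slope was 0.29 for Vamp5, with a limma adjusted p of 0.00955. Under that model it was -0.0016 for Col5a1, -0.15 for Emilin2, 0.015 for Bex4, 0.14 for Tmem40 and -0.071 for Ces2g, and none of these passed. Within the lines the slopes kept their size on fewer arrays, although the line is a label and shares the doubt over the labels. In the 26 arrays of line 6070 they were 0.64 for Vamp5, 0.62 for Col5a1, 0.59 for Tmem40, 0.55 for Bex4, 0.40 for Emilin2 and 0.38 for Ces2g, and Vamp5 passed, with a limma adjusted p of 0.00883. In the 21 arrays of line 6113 they were 0.72 for Vamp5, 0.72 for Col5a1, 0.67 for Tmem40, 0.64 for Bex4, 0.51 for Ces2g and 0.37 for Emilin2. None of the 6 passed there in limma, with an adjusted p of 0.0689 for Vamp5, where 2480 of 18177 genes had an unadjusted p below 0.05 and 176 passed after adjustment.

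Among the 29 spleens with high Col5a1, Erg RNA itself fell into separate ranges, from 5.08 to 5.75 in 9 spleens and from 6.59 to 8.28 in 20. Vamp5 ran from 7.85 through 8.41 to 8.90 in those 9 spleens and from 8.65 through 9.15 to 9.65 in the 20, so the medians differed by 0.74 with some overlap. For the other 5 genes the medians differed by -0.16 for Emilin2, 0.11 for Col5a1, 0.13 for Bex4, 0.21 for Ces2g and 0.38 for Tmem40, and their ranges overlapped widely. Over the 29 arrays r with Erg was 0.789 for Vamp5, the 39th highest of 18177 genes, and 0.398 for Tmem40. It was between -0.074 and 0.252 for Col5a1, Emilin2, Bex4 and Ces2g. Inside the range of 20 spleens r for Vamp5 was 0.300, and inside that of 9 it was 0.218, so the relation was mainly the step between the ranges. On the 18 arrays with low Col5a1 r was 0.258 for Vamp5. Whether the slope of Vamp5 differs from the slopes of the other 5 genes was not tested.

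**Figure D5:**
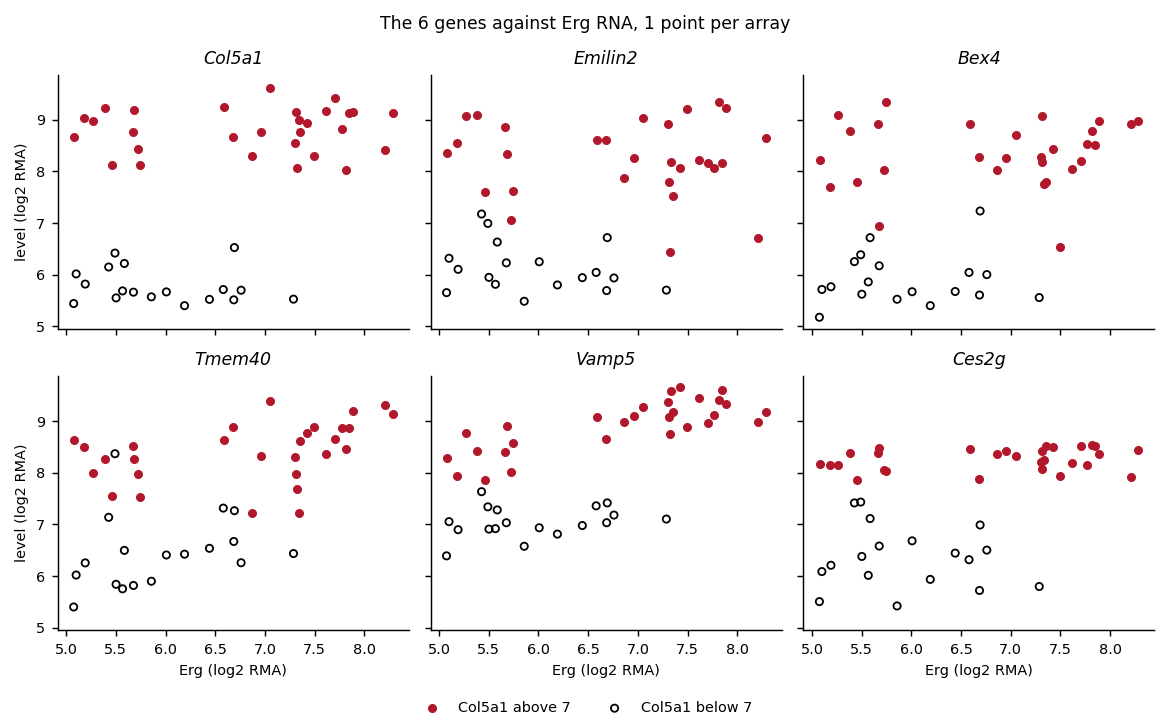
Level of each of the 6 genes (log2 RMA, vertical axis) against Erg RNA (log2 RMA, horizontal axis), 1 point per spleen; filled points are the 29 arrays with Col5a1 above 7 and open points the 18 below. Among filled points Vamp5 is higher in the 20 spleens with Erg at 6.59 or more, with a median of 9.15, than in the 9 with Erg at or below 5.75, with a median of 8.41.

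By label the 6 genes did not separate. Because Xist went against the sex label on 24 of 47 arrays, the pairing of labels and arrays is in doubt. The label fits therefore cannot decide whether the 6 genes differ by label, and the values below only describe the groups as labelled. Col5a1 ran from 5.44 through 8.49 to 9.62 in the 26 spleens labelled with an Erg insertion and from 5.40 through 8.13 to 9.25 in the 21 without. Both label groups held spleens of both sets, 17 high and 9 low with the insertion label and 12 high and 9 low without. Lines split the same way by number, 17 high and 9 low in line 6070 and 12 high and 9 low in line 6113. With line and sex as covariates, the difference of insertion minus no insertion was 0.44 ± 0.34 (SE) for Tmem40, 0.28 ± 0.41 for Bex4, 0.25 ± 0.37 for Emilin2, 0.23 ± 0.31 for Vamp5, 0.19 ± 0.47 for Col5a1 and 0.011 ± 0.31 for Ces2g, each with a limma adjusted p of 0.999. The 95% confidence interval for Tmem40 ran from -0.25 to 1.12 and that for Col5a1 from -0.75 to 1.13, so both intervals reach past a doubling. No gene of 18178 passed in limma for the insertion label (0% higher and 0% lower), while 666 had an unadjusted p below 0.05.

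The other labels gave the same result, under the same doubt over the pairing of labels and arrays. No gene passed in limma for line, sex or age, with 540, 460 and 688 genes at an unadjusted p below 0.05. The differences of line 6113 minus line 6070 ran from -0.39 ± 0.37 for Emilin2 to -0.090 ± 0.41 for Bex4. Those of female minus male labels ran from -0.014 ± 0.30 for Ces2g to 0.32 ± 0.33 for Tmem40. The Erg label difference was larger in line 6113 than in line 6070 by 0.52 ± 0.84 for Bex4 up to 1.06 ± 0.61 for Vamp5, and the limma adjusted p of this interaction was 0.733 to 0.900 for the 6 genes. Vamp5, with the largest interaction of the 6, had a median of 7.50 in 12 spleens of line 6113 without the insertion label. Its median was 8.96 in 9 spleens of line 6113 with the label. In line 6070 it was 8.90 in 9 spleens without the label and 8.78 in 17 with it. All 4 label groups nonetheless overlapped. The identifier number 7 was on 10 spleens with high Col5a1 and 1 with low, number 8 on 1 and 2, and number 9 on 18 and 15.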

How the data were processed

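The data were Affymetrix Mouse Genome arrays of 47 leukaemic spleens, with a single array for each mouse and no technical replicates. The deposited values are log2 levels. According to the submitters' processing notes the authors made them by RMA, with the affy package and R 2.15. RMA corrects background and quantile normalizes the arrays, so differences of dim genes are compressed. Of 45101 probe sets, 34945 name 1 gene in the platform annotation, 932 several and 9160 none. The probe set with the highest mean gave 18193 genes, and the 18178 genes that exceeded log2 5 on 9 or more arrays were tested. Fits used limma 3.58.1 in R 4.3.3 with Benjamini-Hochberg adjustment and a threshold of 0.05; the Erg gene was left out of its own fit. The label fit had line and sex as covariates. The script was tested on simulated data. The number of arrays limits the precision.

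The members, gene lists and tests were chosen with earlier results of these data known. Beside the 6 members, Car1, Klf1 and Erg, genes were named by a rule: the 3 with the highest r for each member, and of each list the 2 with the highest and the 2 with the lowest mean r with the members. A mean r of a gene is the mean of its 6 correlations with the members. For r with the mean of a list, each gene was first centred and divided by its standard deviation over the 47 arrays. Mean levels of lists are plain means of log2 values. Lists cover erythroid, megakaryocyte and platelet, B cell, T and NK cell, neutrophil and granule, monocyte and macrophage, and stroma and endothelium genes, and the collagen, EMILIN and multimerin, BEX and TCEAL, VAMP and carboxylesterase families. Promoter sequences are RefSeq's, build GRCm38.p6; a build for the array values is not given in the sources used here.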

Additional observations from a re-analysis of the deposited data

How the results depend on the processing

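The medians of r changed most with the choice of arrays and the coefficient. For the 15 pairs of the 6 genes, Spearman's rho gave 0.775, the arrays with high Col5a1 0.263 and those with low Col5a1 0.763, against 0.877. For Klf1 these were 0.668, 0.147 and 0.352, against 0.757. For the B cell list, line 6070 gave -0.681, line 6113 -0.794, high Col5a1 -0.229 and low Col5a1 -0.013, against -0.727. For the T and NK cell list, they were -0.779, -0.565, 0.0069 and -0.309, against -0.694. The splits by Col5a1 were added after the data were seen.

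The Erg RNA fit called 2890 genes. It called 1020 with Car1 as covariate, 884 with Vpreb1 and Cd3d, 1122 in line 6070, 176 in line 6113 and 1480 in the arrays with identifier number 9. Of the 6 genes, 5 were called; 1 was with Car1, 1 with Vpreb1 and Cd3d, 1 in line 6070 and 0 in line 6113. Slopes turned to -0.0016 for Col5a1, -0.15 for Emilin2 and -0.071 for Ces2g with Vpreb1 and Cd3d. Under 11 settings with the brighter Erg probe set, Vamp5 was called in 10, Col5a1 and Tmem40 in 7, Bex4 and Ces2g in 6 and Emilin2 in 0.

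For the insertion label, 0 genes passed under every setting tried, but the direction of the differences of the 6 genes was not stable. In line 6070 they were -0.25 for Col5a1, -0.20 for Emilin2, -0.26 for Vamp5, -0.47 for Ces2g, 0.0099 for Bex4 and 0.14 for Tmem40. In line 6113 all 6 were positive, from 0.54 for Bex4 to 0.91 for Tmem40. In the 23 arrays whose sex label matched, they were -0.45 for Col5a1, -0.11 for Emilin2, -0.50 for Bex4, -0.050 for Tmem40, -0.33 for Vamp5 and -0.34 for Ces2g. A matching sex label does not show that the other labels belong to the array. With the identifier number as a block, Col5a1 had -0.018 and Ces2g -0.12, and with age as a covariate Ces2g had -0.032. Slopes on age turned without covariates to 0.0040 for Col5a1, 0.0033 for Emilin2 and 0.00093 for Vamp5. The causes were not tested.

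No paired analysis was possible because the replicate numbers only name the arrays and every array is a different mouse. Bulk spleen RNA cannot separate cell number from RNA per cell, and levels near 5 are at background.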
